A study of Homo sapiens with 12 samples.

Results

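The S100A calcium binding proteins described here are 9 genes, S100A2, S100A3, S100A4, S100A6, S100A10, S100A11, S100A13, S100A14 and S100A16, taken by symbol from the 32152 genes of the deposited table. All 9 are listed in every one of the 12 libraries, and 8 of them were tested, S100A14 being too low. MDA-MB-231 and Hs-578T, the 2 lines sequenced, are established human lines of triple-negative breast cancer. Parental controls, ERK5-ko cells and MEK5DD cells had 2 libraries each in either line. ERK5-ko cells were made with CRISPR/Cas9 and guides against MAPK7, the gene of the kinase ERK5. MEK5DD is a constitutively activated form of MEK5, the kinase upstream of ERK5, and how these cells were made is not given in the sources used here. The MDA-MB-231 ERK5-ko cells were 1 surviving clone, and which clone of Hs-578T was sequenced is not stated. Passage labels were 29 and 30 in MDA-MB-231 parental controls, 7 and 8 in ERK5-ko and 10 and 11 in MEK5DD. In Hs-578T they were 83 and 84 in parental controls and 8 and 9 in both other groups. In every comparison with parental controls, genotype and passage cannot be told apart, nor can genotype and the choice of a clone for ERK5-ko cells. The 2 libraries of a group are consecutive passages, so p values measure only a spread between such libraries, which may be technical. This spread was pooled over all 6 groups. Replicates differed least in MDA-MB-231 MEK5DD (chi-squared per degree of freedom of their reads 2.82) and most in Hs-578T MEK5DD (41.9). A p value thus does not measure the spread of the 2 groups compared alone.

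S100 proteins are small calcium sensors of the EF-hand type. Most of them form dimers, and on binding calcium they expose a surface that takes up partner proteins such as annexins or myosin. Several are also released from cells and can signal through receptors such as RAGE, the product of AGER. Many of their genes lie side by side in a cluster on the long arm of chromosome 1, and several members, S100A4 above all, are studied for their part in breast cancer cell motility and metastasis.

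In the coordinates of the files, which are those of GRCh38, all 9 genes lie on the minus strand of chromosome 1. S100A10 (chr1:151982915-151994390) and S100A11 (chr1:152032506-152047907) lie apart from the rest. The others follow in the order S100A6 (chr1:153534599-153536244), S100A4 (chr1:153543613-153550136), S100A3 (chr1:153547329-153549372), S100A2 (chr1:153561108-153567890), S100A16 (chr1:153606886-153613145), S100A14 (chr1:153614255-153616986) and S100A13 (chr1:153618787-153634092). The span of S100A3 lies within that of S100A4 on the same strand, with 0 shared exon bases in GENCODE 29. S100A13 shares 235 exon bases with S100A1 on the opposite strand and 536 with AL162258.1 on its own strand. How reads in such overlaps were assigned is not given in the sources used here.

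The 4 members that fell together in MDA-MB-231 MEK5DD libraries, described further on, are shown by the 250 bases before their RefSeq start (GRCh38.p14, minus strand, 5′ to 3′). They are chr1:153545807-153546056 for S100A4, chr1:153549259-153549508 for S100A3, chr1:153535992-153536241 for S100A6 and chr1:153565845-153566094 for S100A2. Capitals mark TATAAA, known as the TATA box. They also mark TGANTCA, the AP-1 type, and in other places GGGCGG, known as the GC box, each searched on both strands.
S100A4: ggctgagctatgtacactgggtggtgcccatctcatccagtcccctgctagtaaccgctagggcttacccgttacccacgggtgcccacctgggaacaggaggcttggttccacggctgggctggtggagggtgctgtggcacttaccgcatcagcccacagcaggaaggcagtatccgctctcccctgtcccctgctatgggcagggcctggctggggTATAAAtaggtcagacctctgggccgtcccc
S100A3: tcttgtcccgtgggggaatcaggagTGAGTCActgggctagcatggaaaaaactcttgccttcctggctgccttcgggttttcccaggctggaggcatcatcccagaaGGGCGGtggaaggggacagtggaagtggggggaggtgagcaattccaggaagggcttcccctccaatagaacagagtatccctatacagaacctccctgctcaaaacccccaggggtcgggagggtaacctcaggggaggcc
S100A6: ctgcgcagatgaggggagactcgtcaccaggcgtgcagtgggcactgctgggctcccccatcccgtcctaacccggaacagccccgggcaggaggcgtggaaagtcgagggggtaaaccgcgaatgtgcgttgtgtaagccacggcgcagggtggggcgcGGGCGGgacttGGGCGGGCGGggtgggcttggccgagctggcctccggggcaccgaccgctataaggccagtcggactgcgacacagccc
S100A2: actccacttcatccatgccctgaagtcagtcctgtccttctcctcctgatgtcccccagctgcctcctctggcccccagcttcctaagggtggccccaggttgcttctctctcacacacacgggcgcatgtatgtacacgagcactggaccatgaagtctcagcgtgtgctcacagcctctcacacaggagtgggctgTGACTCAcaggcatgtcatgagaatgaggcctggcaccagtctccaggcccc
The S100A4 window holds TATAAA, which is in 10.7% of the 35116 windows of this length in the RefSeq table. Those of S100A3 and S100A2 each hold 1 TGANTCA, found in 6.57% of all windows. S100A6 holds 3 GGGCGG, of which the last 2 overlap, and S100A3 holds 1, a motif in 42.6% of windows. The 4 windows thus share no 1 motif of these 3. CACGTG (an E-box, 6.34% of windows) and the MEF2 motif (2.80%) had no match in the windows of any member. A match is a description of these letters and not a measured binding site. The start of S100A2 shown is the first of the 2 that RefSeq lists, and the second window holds none of these motifs.

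The deposited values are RPKM, reads scaled to gene length in kilobases and to the size of its library, so that levels of different genes can be set side by side. Whole reads were recovered from them, and the library totals lay between 20248162 and 27791195 reads. MAPK7 RNA was not lower in ERK5-ko libraries, at RPKM 16.3 to 17.8 against 13.3 to 14.3 in parental controls of MDA-MB-231 and 17.8 to 18.1 against 13.97 to 15.98 in Hs-578T. MAP2K5, the gene of MEK5, was higher in MEK5DD libraries, at 184 to 188 against 12.9 to 13.6 in MDA-MB-231 and at 21.3 to 23.8 against 14.6 to 16.9 in Hs-578T. Edits that disrupt a protein need not lower its RNA, so the MAPK7 level does not check the ERK5-ko label, and directions below are those of the labels. Of the markers of triple-negative cells, ESR1 was at an RPKM of at most 0.12 and PGR of at most 0.348 in all libraries, whereas ERBB2 was at 27.8 to 56.8. Of 4 blood and myeloid markers, PTPRC, the defining one, was at most 0.396 and LYZ at most 1.498, while CSF1R was at 1.95 to 6.13 and CD68, a lysosomal protein, at 23.2 to 107.9.

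S100A6, known as calcyclin, was the gene with the highest RPKM of the whole table in all 6 MDA-MB-231 libraries. It had an RPKM of 10699.7 and 10256 in MDA-MB-231 parental controls, 12309 and 13725 in ERK5-ko and 5545 and 5500.2 in MEK5DD. In Hs-578T it stood at 2677 and 2067 in parental controls, 1642 and 1548 in ERK5-ko and 4115 and 2696 in MEK5DD, ranking between 7 and 30 among all genes. No 2 of the 6 groups overlapped for S100A6. Together the 9 genes took 0.935% and 0.905% of all reads in MDA-MB-231 parental controls, 1.11% and 1.22% in ERK5-ko and 0.481% and 0.475% in MEK5DD. In Hs-578T they took 0.258% and 0.204% in parental controls, 0.171% and 0.160% in ERK5-ko and 0.340% and 0.245% in MEK5DD. The 2 lines thus placed their ERK5-ko libraries at opposite ends of the order, highest in MDA-MB-231 and lowest in Hs-578T.

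**Figure D1:**
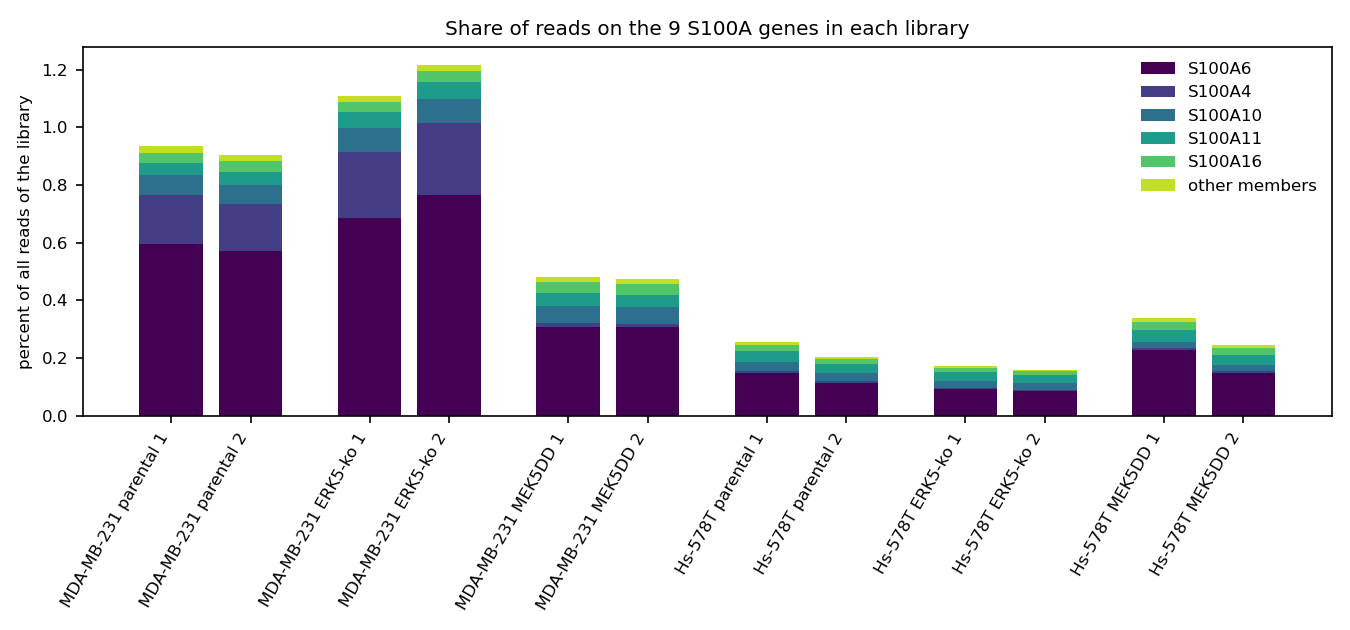
Percent of all reads of each library on the 9 S100A genes, with a bar for each of the 12 libraries split by gene. S100A6 makes up the largest part of every bar, and the share runs from 0.160% in an Hs-578T ERK5-ko library to 1.22% in an MDA-MB-231 ERK5-ko library.

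S100A4, which binds non-muscle myosin IIA and is the member most studied in metastasis, had the widest range by fold among the tested members. Its RPKM was 2874 and 2747 in MDA-MB-231 parental controls, 3895 and 4262 in ERK5-ko and 208 and 204 in MEK5DD. In Hs-578T it was 117 and 83.5 in parental controls, 65.2 and 61.0 in ERK5-ko and 113 and 89.3 in MEK5DD. The order of S100A4 was thus MDA-MB-231 ERK5-ko, parental and MEK5DD, then Hs-578T, where MEK5DD and parental controls overlapped and ERK5-ko was lowest. S100A4 was the gene of rank 6 by RPKM in both MDA-MB-231 parental controls and of rank 554 and 561 in the MEK5DD libraries.

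S100A10, which does not need calcium and forms a complex with annexin A2, stood at 1018 and 1023 in MDA-MB-231 parental controls, 1226 and 1216 in ERK5-ko and 909.6 and 876 in MEK5DD. In Hs-578T it was 472 and 418, 398 and 386, and 318 and 300.1 in the same order of groups. No groups overlapped, and in both lines MEK5DD was lowest. S100A11, a partner of annexin A1, was at 752 and 779 in MDA-MB-231 parental controls, 963 and 1029 in ERK5-ko and 784 and 768 in MEK5DD, and at 677 and 562, 511 and 457, and 701 and 642 in Hs-578T. Parental controls and MEK5DD overlapped for S100A11 in both lines, with ERK5-ko above them in MDA-MB-231 and below them in Hs-578T.

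S100A16, a widely expressed member, was at 378 and 391 in MDA-MB-231 parental controls, 371 and 411 in ERK5-ko and 384 and 391 in MEK5DD, so that the 3 groups overlapped. In Hs-578T its 3 groups were apart, at 213 and 172 in parental controls, 147 and 137 in ERK5-ko and 285 and 235 in MEK5DD. S100A13, which helps FGF1 to leave the cell, was at 99.8 and 95.2, 102 and 113, and 126 and 116 in the MDA-MB-231 groups in that order. In Hs-578T its RPKM was 108 and 71.5 in parental controls, 59.0 and 51.6 in ERK5-ko and 156 and 98.5 in MEK5DD. Replicate 1 was above replicate 2 in all 3 Hs-578T groups for S100A13, as for each of the 8 tested members, and for S100A13 the gap was largest in MEK5DD and parental controls, the groups whose replicates differed most over all genes.

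S100A2 was at 153 and 150.3 in MDA-MB-231 parental controls, 121 and 135 in ERK5-ko and 88.9 and 90.7 in MEK5DD. In Hs-578T it was between 6.997 and 9.58 in all 6 libraries, and parental controls and MEK5DD overlapped. S100A3, a cysteine-rich member best known from the hair cuticle, was at 51.4 and 51.1 in MDA-MB-231 parental controls, 45.7 and 53.2 in ERK5-ko and 14.1 and 16.3 in MEK5DD. In Hs-578T it was between 11.3 and 15.7, and the MDA-MB-231 MEK5DD libraries overlapped that range. S100A14, found mostly in epithelia, had 0 to 5 reads in each library and an RPKM of at most 0.230, so no fold is given for it.

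**Figure D2:**
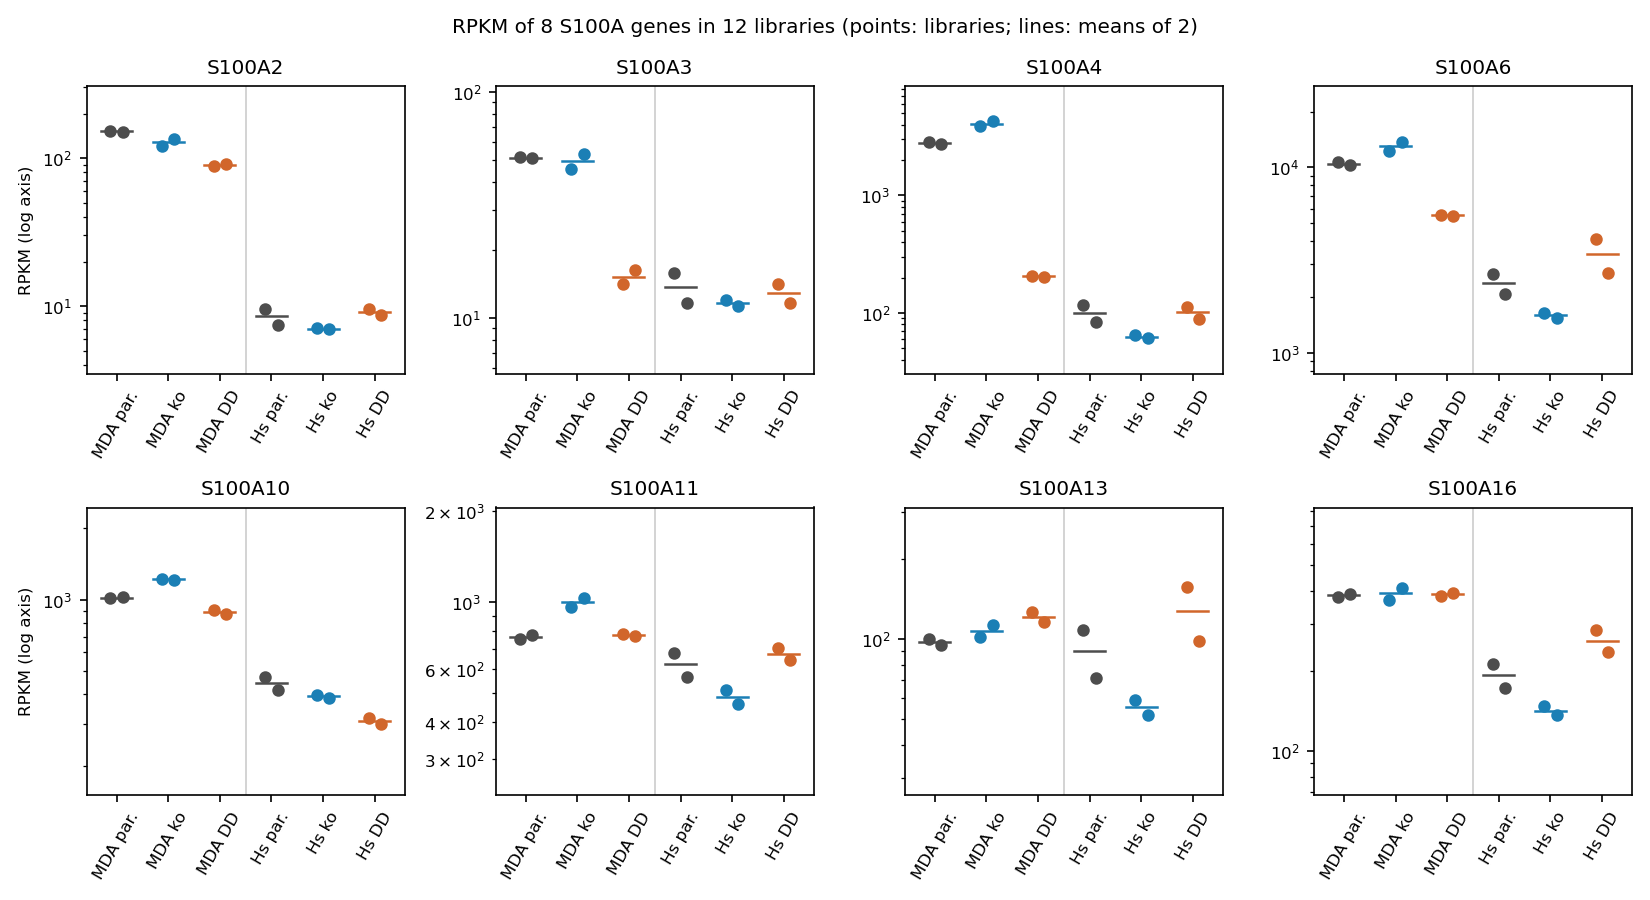
RPKM on a log axis of the 8 tested S100A genes in the 12 libraries, with a point for each library and a line for the mean of 2 (MDA, MDA-MB-231; Hs, Hs-578T; par., parental; ko, ERK5-ko; DD, MEK5DD). S100A4 drops to 208 and 204 in MDA-MB-231 MEK5DD, and in that line S100A10, S100A11 and S100A16 differ less between groups.

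The first comparison set MDA-MB-231 ERK5-ko libraries against parental controls, to ask which members differed with the ERK5-ko label. S100A4 and S100A11 rose and no member fell, 2 of 8, where 17.3% of the 13737 genes tested were called in either direction and 6.91% as higher. S100A4 had a log2 fold change of 0.54 on the scale of log2(RPKM + 0.5) (standard error 0.152, adjusted p = 0.0320, limma with Benjamini-Hochberg adjustment over all genes tested, as for every adjusted p here). Its mean was 4078 ± 260 (SD, n = 2) against 2810.4 ± 89.8, a fold of 1.45. S100A11 had 0.38 (standard error 0.114, adjusted p = 0.0412), a fold of 1.30. S100A10 had 0.26 with an adjusted p of 0.0860, and of 0.0441 under median-ratio scaling and 0.0389 where replicate numbers formed a block. S100A6 had 0.31 with a 95% confidence interval from -0.12 to 0.74 and S100A2 -0.24 with one from -0.49 to -0.00. The median over the 8 members was 0.20, and -0.04 over all genes tested. Both rises were lost without any 1 of the 6 MDA-MB-231 libraries or of the 2 Hs-578T ERK5-ko libraries, where the adjusted p of S100A4 was between 0.0549 and 0.180. They were also lost with no filter on low values, where the adjusted p was 0.0619 for S100A4 and 0.0640 for S100A11. S100A4 was lost with only the 4 libraries compared (0.0645), and with quantile normalization S100A4 had 0.10 (adjusted p = 0.669).

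In Hs-578T, the same comparison went the other way. S100A4, S100A6, S100A11, S100A13 and S100A16 fell in ERK5-ko, 5 of 8, and none rose, where 39.4% of all genes tested were called in either direction and 19.7% as lower. S100A13 fell by 0.67 on the log2 scale (standard error 0.210, adjusted p = 0.0258), from 89.97 ± 26.2 to 55.3 ± 5.26 (SD, n = 2). S100A4 fell by 0.64 (standard error 0.152, adjusted p = 0.00609), a mean 1.59-fold lower, and S100A6 by 0.56 (adjusted p = 0.0401). S100A16 fell by 0.43 (adjusted p = 0.0155) and S100A11 by 0.35 (adjusted p = 0.0289). S100A2 had -0.25 with an adjusted p of 0.0948, and of 0.0439 with the replicate block, while S100A3 and S100A10 had -0.21 and -0.18. The median of the members was -0.39, and 0.01 over all genes tested, and none of these changes was below the study's threshold of a fold under 0.5, which 3.27% of all genes tested passed. All 5 falls were lost with the 4 libraries of the comparison alone (adjusted p between 0.0536 and 0.125), without parental replicate 1 (0.0523 to 0.232) and without ERK5-ko replicate 2 (between 0.0584 and 0.203), and that of S100A13 also without ERK5-ko replicate 1 (0.0607). Without parental replicate 1 the falls themselves were smaller, at -0.37 for S100A13, -0.40 for S100A4, -0.38 for S100A6, -0.28 for S100A16 and -0.22 for S100A11. With no filter on low values S100A6 and S100A13 were lost (0.0989 and 0.0540), and with quantile normalization S100A6 had -0.34 (adjusted p = 0.114). The fall of S100A6 held without parental replicate 2 or either MEK5DD library of Hs-578T and was lost without any other 1 library (adjusted p between 0.0565 and 0.232), and that of S100A11 was also at 0.0504 without either MDA-MB-231 MEK5DD library.

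The difference between the lines was tested directly as the MDA-MB-231 change minus the Hs-578T change. It passed for 4 of 8 members, all with the larger value in MDA-MB-231, as did 18.3% of all genes tested, while 39.8% passed in either direction. S100A4 differed by 1.18 (standard error 0.214, adjusted p = 0.00135) and S100A11 by 0.73 (adjusted p = 0.00422), and both differences passed in all 22 alternatives, with that of S100A4 at 0.73 under quantile normalization. S100A6 differed by 0.87 (adjusted p = 0.0272) and S100A10 by 0.44 (adjusted p = 0.0231), but quantile normalization gave 0.34 (adjusted p = 0.251) and 0.23 (adjusted p = 0.105), and S100A6 was also lost with no filter (0.0727). Without either MDA-MB-231 parental library, MDA-MB-231 ERK5-ko replicate 2, Hs-578T parental replicate 1 or Hs-578T ERK5-ko replicate 2, S100A6 and S100A10 had adjusted p values between 0.0617 and 0.0965, and S100A6 was also lost without Hs-578T ERK5-ko replicate 1 (0.0628) and S100A10 without MDA-MB-231 ERK5-ko replicate 1 (0.0612). S100A13 and S100A16 differed by 0.80 and 0.46 with adjusted p values of 0.0507 and 0.0550, and of 0.00244 and 0.00769 with the replicate block. Both also passed under median-ratio scaling (0.0413 and 0.0349) and quantile normalization (0.0399 and 0.0322).

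Of the comparisons with parental controls of the same line, that of MDA-MB-231 MEK5DD gave the largest changes of members. S100A4, S100A3, S100A6 and S100A2 fell, 4 of 8, and no member rose, where 41.3% of all genes tested were called in either direction and 23.8% as lower. S100A4 fell by 3.77 on the log2 scale (standard error 0.152, 95% confidence interval from -4.10 to -3.44, adjusted p = 7.69e-09), to 206 ± 3.08 (SD, n = 2), a mean 13.7-fold lower. S100A3 fell by 1.73 (standard error 0.146, adjusted p = 2.83e-06), a mean 3.37-fold lower, S100A6 by 0.92 (standard error 0.196, adjusted p = 0.00275), 1.90-fold lower, and S100A2 by 0.75 (standard error 0.111, adjusted p = 0.000217), 1.69-fold lower. S100A4 and S100A3 were the 2 members past the study's fold of 0.5, as were 6.31% of all genes tested. S100A10, S100A11 and S100A16 had -0.19, 0.02 and 0.01, with 95% confidence intervals from -0.40 to 0.02, from -0.23 to 0.27 and from -0.26 to 0.28. S100A13 had 0.31 with an adjusted p of 0.264, and of 0.0427 with the replicate block. The 4 falls held without any 1 library. Quantile normalization gave S100A6 no change at all, because it was the top gene of all 6 MDA-MB-231 libraries and that setting gives all top genes the same value.

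The genes that fell in MDA-MB-231 MEK5DD are neighbours. S100A6, S100A4, S100A3 and S100A2 follow each other on the chromosome, and S100A5, the 1 further S100 gene tested among them, fell too, by 1.37 (standard error 0.171, adjusted p = 6.53e-05). S100A16 and S100A13, next in the cluster, and S100A10 and S100A11, on its other side, did not pass. The latter 2 are not close, since the first base of S100A6 lies 1552 kb from that of S100A10. This edge depends on the setting, since S100A10 passed as lower with quantile normalization (-0.35, adjusted p = 0.00294) and with only the 4 libraries compared (adjusted p = 0.0232). With only those libraries S100A13 passed as higher (adjusted p = 0.0167) and 6 of 8 members were called. Under that setting 3573 of the 13737 genes tested were called as higher and 4179 as lower. The 11 tested genes nearest to the cluster, chosen after their values were seen, comprised 5 before S100A10, 5 after S100A13 and CHTOP, whose span overlaps that of S100A13 on the opposite strand. The 5 before S100A10 begin at -371 to -109 kb from its first base, and so lie still further from the genes that fell. Of the 11 genes, 3 rose and 2 fell in MDA-MB-231 MEK5DD, between -0.80 (NPR1) and 0.64 (ILF2), where 41.3% of all genes tested were called. None passed in Hs-578T MEK5DD, where 23.4% of all genes tested did.

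**Figure D3:**
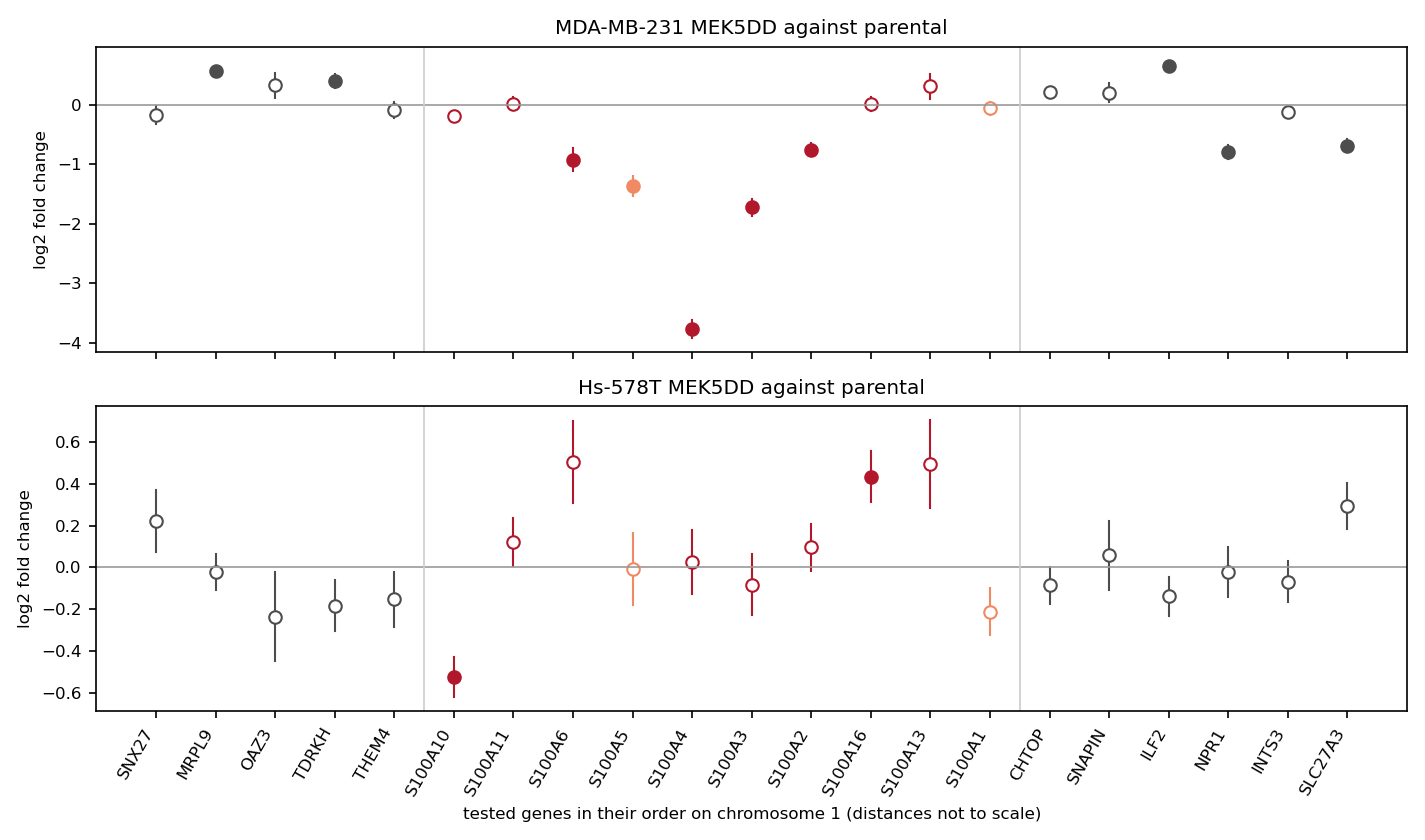
Log2 fold change of MEK5DD against parental controls for the S100 genes (red, members; orange, S100A5 and S100A1) and 11 flanking genes (grey) in their order on chromosome 1, with bars of 1 standard error and filled points at an adjusted p under 0.05. In MDA-MB-231 the filled points from S100A6 to S100A2 lie between -3.77 and -0.75, and in Hs-578T only S100A10 and S100A16 are filled.

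In Hs-578T MEK5DD libraries S100A16 rose and S100A10 fell, 2 of 8, where 23.4% of all genes tested were called in either direction, 6.44% as higher and 17% as lower. S100A16 had 0.43 (standard error 0.122, adjusted p = 0.0254), with means of 260.0 ± 34.8 and 193 ± 28.7 (SD, n = 2). S100A10 had -0.52 (standard error 0.0950, adjusted p = 0.00269), a mean 1.44-fold lower. S100A6 and S100A13 had 0.50 and 0.49 with adjusted p values of 0.0889 and 0.115, and of 0.0224 and 0.00894 with the replicate block. S100A4 had 0.03 with a 95% confidence interval from -0.31 to 0.36, an interval that does not reach the change seen in MDA-MB-231. The rise of S100A16 was lost without parental replicate 2 (0.28, adjusted p = 0.161) and without MEK5DD replicate 1 (0.30, adjusted p = 0.119). With the 4 libraries of the comparison alone, both calls were lost (adjusted p = 0.164 for S100A10 and 0.280 for S100A16).

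The MEK5DD changes of the lines differed for S100A4 by -3.79 (standard error 0.214, adjusted p = 3.12e-07), S100A3 by -1.64 (adjusted p = 9.92e-05), S100A6 by -1.43 (adjusted p = 0.00191) and S100A2 by -0.85 (adjusted p = 0.00134), where 39.6% of all genes tested differed in either direction and 18.2% in this one. All 4 held without any 1 library, but quantile normalization gave S100A6 -0.49 (adjusted p = 0.105). S100A10 and S100A16 differed by 0.33 and -0.42 with adjusted p values of 0.0717 and 0.0745, and of 0.0343 and 0.0116 with the replicate block. MAP2K5 itself rose by 3.77 in MDA-MB-231 and by 0.50 in Hs-578T, a difference of 3.26 (adjusted p = 4.84e-08), so the MEK5DD libraries of the lines do not stand for the same level of MEK5 RNA.

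**Figure D4:**
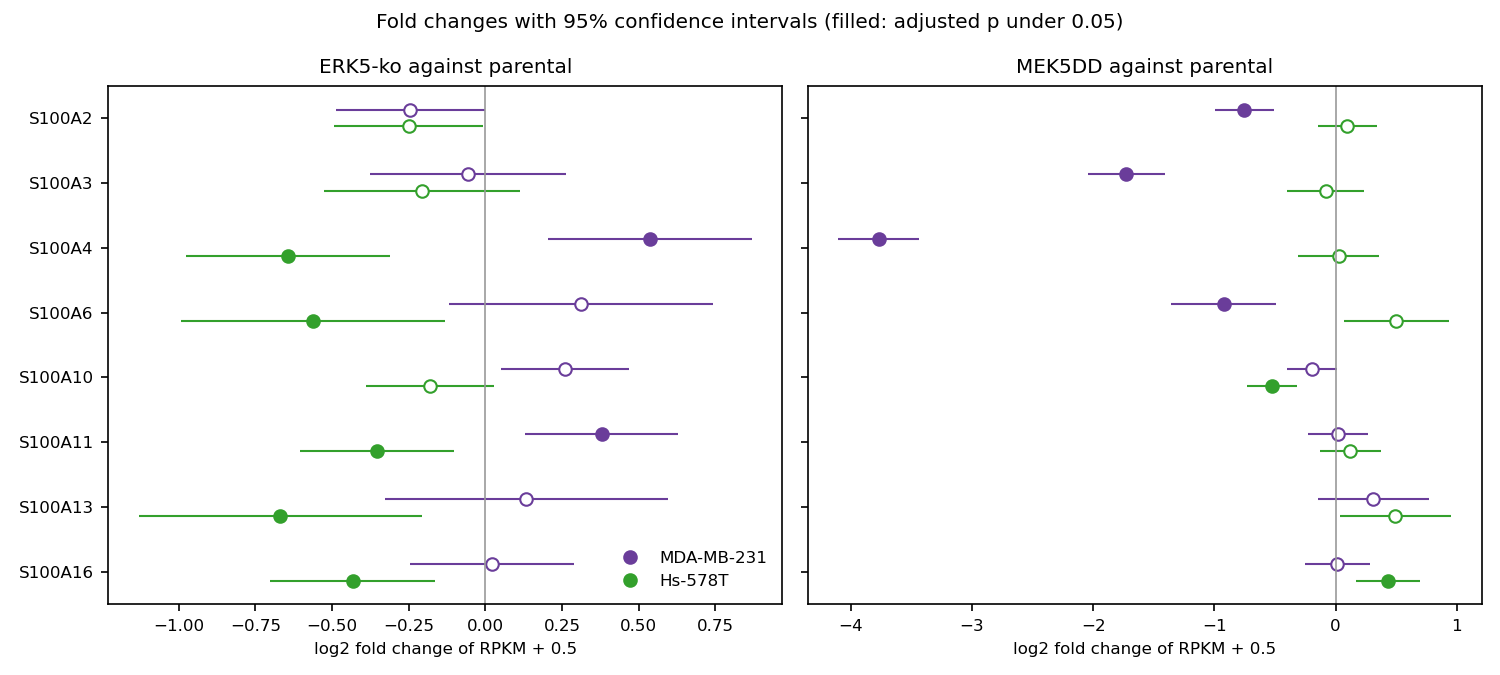
Log2 fold change with its 95% confidence interval of the 8 S100A genes in ERK5-ko and MEK5DD libraries against parental controls, for MDA-MB-231 (purple) and Hs-578T (green), with filled points at an adjusted p under 0.05. For ERK5-ko the filled points lie above 0 in MDA-MB-231 (0.54 and 0.38) and below 0 in Hs-578T (-0.67 to -0.35), and for MEK5DD the MDA-MB-231 point of S100A4 lies at -3.77.

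The ERK5-ko libraries were also set against MEK5DD directly. In MDA-MB-231, 6 of 8 members were higher in ERK5-ko, S100A4 by 4.30 (adjusted p = 1.33e-09), S100A3 by 1.67, S100A6 by 1.23, S100A2 by 0.51, S100A10 by 0.45 and S100A11 by 0.36, where 55% of all genes tested were called and 27.1% as higher. S100A4 was 19.8-fold higher by its means. In Hs-578T, 6 of 8 were lower in ERK5-ko, where 50% of all genes tested were called, 30.7% as higher and 19.2% as lower, and the groups carry the same passage labels. S100A13 had -1.16 (standard error 0.210, adjusted p = 0.000866), S100A6 -1.06 (adjusted p = 0.000987), S100A16 -0.87 (adjusted p = 0.000150), S100A4 -0.67 (adjusted p = 0.00369), S100A11 -0.47 and S100A2 -0.35. S100A10 went the other way, with 0.34 (adjusted p = 0.0110), but with 0.22 under median-ratio scaling (adjusted p = 0.0826). S100A2 was lost with limma voom (0.0743), and S100A2, S100A6, S100A10 and S100A11 with only the 4 libraries compared (adjusted p between 0.0508 and 0.108). In MDA-MB-231 quantile normalization gave S100A6 no difference, for the reason given above. These comparisons share their ERK5-ko or MEK5DD libraries with those above. Calls were lost for S100A11 in MDA-MB-231 without ERK5-ko replicate 2 (adjusted p = 0.111) or either MEK5DD library (0.0726 and 0.0950), and in Hs-578T for S100A2 without either ERK5-ko library or MEK5DD replicate 1 (0.0729 to 0.0969), S100A10 without ERK5-ko replicate 1 (0.0627) and S100A11 without ERK5-ko replicate 2 (0.0576).

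Between the parental controls, 7 of 8 members were lower in Hs-578T than in MDA-MB-231, where 77.4% of all genes tested were called and 46% as lower. S100A4 was 28.1-fold lower by its means (-4.82 on the log2 scale, standard error 0.152, adjusted p = 6.76e-11) and S100A2 17.8-fold lower (-4.08, adjusted p = 1.90e-11). S100A6 was 4.42-fold, S100A3 3.74-fold, S100A10 2.29-fold and S100A16 1.995-fold lower. S100A11 had -0.31 (adjusted p = 0.0266), which was -0.07 under median-ratio scaling (adjusted p = 0.585) and was also lost with only the 4 libraries compared (0.0713) and without either MDA-MB-231 parental library or Hs-578T parental replicate 2 (adjusted p between 0.0728 and 0.216, with -0.18 without the last). S100A13 had -0.15 with a 95% confidence interval from -0.61 to 0.32. The median over all genes tested was -0.19, and median-ratio scaling moved it to 0.02.

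Markers of other cell states moved with some of these groups. Summed over 7 epithelial genes, the RPKM was 1649 to 1754 in MDA-MB-231 parental controls, 2734 to 2764 in ERK5-ko and 1189 to 1239.7 in MEK5DD, the same order of groups as S100A4, S100A6 and S100A10. Of the 7, 5 rose in ERK5-ko, KRT8, KRT18, KRT19, CLDN4 and EPCAM, while CDH1 (-0.05) and ESRP1 (0.14) did not pass. In MEK5DD 4 fell and 1 rose. Summed over 5 mesenchymal genes, it was 1686 to 1834 in parental controls, 1655 to 1709.7 in ERK5-ko and 3537 to 3615 in MEK5DD, where VIM, FN1, SPARC and ZEB1 rose. Most of this sum was VIM, which had -0.05 in ERK5-ko (adjusted p = 0.829), whereas ZEB1 and SPARC fell there (-0.55 and -0.77). SPARC was low in this line, with group means of at most 2.60. In Hs-578T the epithelial sum was 190.3 to 266 in parental controls, 578.2 to 627 in ERK5-ko and 229 to 255 in MEK5DD, most of it KRT18, and the mesenchymal sum was 13614 to 14912, 13174 to 13328 and 19457 to 19563. Single genes did not all follow these sums. In Hs-578T ERK5-ko KRT18 and CDH1 rose (1.71 and 1.21) while KRT8 and CLDN4 fell (-0.75 and -0.54). SPARC, the largest part of the mesenchymal sum, had -0.29 there (adjusted p = 0.305), while CDH2 and ZEB1 rose (0.73 and 0.38) and 0 of the 5 fell. Summed over 4 basal epithelial genes it was 38.6 to 41.2 in Hs-578T parental controls, 7.25 to 8.82 in ERK5-ko and 129 to 159 in MEK5DD, and at most 2.86 in MDA-MB-231. S100A2, S100A4, S100A6, S100A11, S100A13 and S100A16 had this order of group means in Hs-578T, though MEK5DD and parental controls overlapped for all but S100A6 and S100A16. KRT14, most of that sum, had -2.64 in Hs-578T ERK5-ko (adjusted p = 1.19e-07) and 1.81 in MEK5DD (adjusted p = 9.10e-06), and KRT17 had 2.43 in MEK5DD (adjusted p = 8.15e-06), whereas KRT5 was at most 0.252 in all libraries. TP63, the remaining gene of the 4, went the other way, with -0.82 in Hs-578T MEK5DD (adjusted p = 0.00781) and 0.21 in Hs-578T ERK5-ko (adjusted p = 0.392). The blood and myeloid sum, nearly all CD68, was 68.6 to 76.0 in MDA-MB-231 parental controls, 55.6 to 67.4 in ERK5-ko and 111.0 to 113 in MEK5DD, and 42.0 to 46.4, 25.5 to 28.1 and 44.4 to 55.5 in Hs-578T. CD68 had 0.70 in MDA-MB-231 MEK5DD (adjusted p = 0.00128) and -0.73 in Hs-578T ERK5-ko (adjusted p = 0.00134). The part of these markers in the S100A values was not tested. In RNA from whole cultures, fewer cells of a type and less RNA per cell cannot be told apart.

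Proteins that S100A members bind were followed through a list of 28 partner genes, of which 26 were tested. In MDA-MB-231 ERK5-ko 3 rose and 4 fell, with a median of -0.14 over the 26, 7 of 26 where 17.3% of all genes tested were called. FGF1, which S100A13 carries out of the cell, had -1.39 (adjusted p = 0.000195), PLAU, the urokinase that activates plasminogen, had -1.33 (adjusted p = 4.03e-06) and ANXA4 0.57 (adjusted p = 0.00355). In Hs-578T ERK5-ko 6 rose and 5 fell with a median of 0.11 (background 39.4%), led by DLC1 (1.18, adjusted p = 0.000541), FGF1 (0.87, adjusted p = 0.00133) and ANXA4 (-0.83, adjusted p = 0.000107). FGF1 was low throughout, with group means of RPKM between 0.191 and 6.77. In MDA-MB-231 MEK5DD 9 rose and 6 fell with a median of 0.16 (background 41.3%), FGF1 standing at 2.03, ANXA6 at 1.38 and PLAT, the tissue plasminogen activator, at -1.35. In Hs-578T MEK5DD 6 rose and 2 fell with a median of 0.13 (background 23.4%), ANXA3 standing at 1.27, IL1A at 1.02 and MYH10 at -0.84, ANXA3 and IL1A having mean RPKM of at most 1.13 in the Hs-578T groups.

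The best-known partners can be set beside their S100A members. ANXA2, the partner of S100A10, rose by 0.56 (adjusted p = 0.00226) in MDA-MB-231 MEK5DD, where S100A10 had -0.19, and its group means were between 2065 and 3070 RPKM in the 6 groups. MYH9, the heavy chain of the myosin that S100A4 binds, was between 1673 and 2700 RPKM on average and passed in no comparison with parental controls. ANXA1, the partner of S100A11, also passed in none of these 4. CACYBP, named for binding calcyclin, had -0.37 and 0.31 in the ERK5-ko and 0.40 and -0.38 in the MEK5DD libraries of MDA-MB-231 and Hs-578T, and passed in all 4 (adjusted p between 0.00508 and 0.0208). Of 7 receptors described for S100 proteins, 6 were tested. None passed in MDA-MB-231 ERK5-ko and BSG fell by 0.51 in Hs-578T ERK5-ko. In MDA-MB-231 MEK5DD ALCAM rose by 1.11 and TLR4, AGER and ERBB2 fell, and in Hs-578T MEK5DD ALCAM and ERBB2 fell by 0.45 and 0.40. AGER had mean RPKM of at most 1.09 in all groups.

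**Figure D5:**
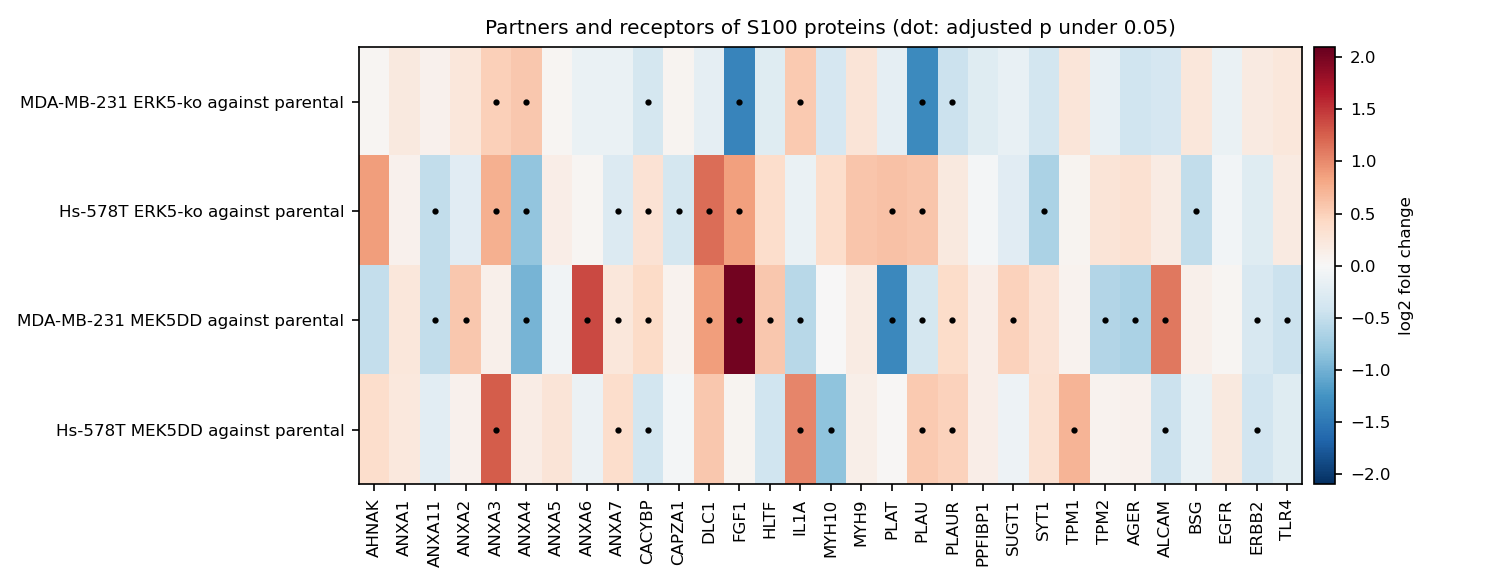
Log2 fold change of 25 partner genes and 6 receptors, in the 4 comparisons with parental controls, with red for higher and blue for lower values and a dot at an adjusted p under 0.05. FGF1 runs from -1.39 in MDA-MB-231 ERK5-ko to 2.03 in MDA-MB-231 MEK5DD, and MYH9 has no dot in any row.

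Of 18 further genes of the S100 and fused S100 type, 9 are listed in the table and 2 were tested. S100A5 had mean RPKM of 29.7, 23.4 and 11.2 in the MDA-MB-231 parental, ERK5-ko and MEK5DD groups and of 0.565, 1.21 and 0.567 in Hs-578T, a log2 fold change of -4.83 between the parental controls. In Hs-578T ERK5-ko S100A5 rose by 0.69 (adjusted p = 0.00806) at these low levels, where 5 members fell and 39.4% of all genes tested were called. S100A1 fell there by 0.67 (adjusted p = 0.000705), but it passed the filter through Hs-578T alone and had at most 12 reads in any library. The rest had at most 15 reads in any library, apart from FLG with at most 98.

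The genes whose pattern was most like that of each member were found by Pearson's r of log2(RPKM + 0.5), with the mean of each line taken out, over the 12 libraries and 12423 genes. The 12 points are 6 groups of 2, so such values are high by construction and are a description. S100A4 went with HSBP1L1 (r = 0.998) and AQP3 (0.993), S100A3 with CA5B (0.986) and LGALS12 (0.984), and S100A6 with DYNLT1 (0.991) and FSCN3 (0.983). AQP3, for example, had mean RPKM of 7.48, 10.2 and 1.19 in the MDA-MB-231 parental, ERK5-ko and MEK5DD groups and of 0.561, 0.332 and 0.606 in Hs-578T, the order of S100A4 in both lines. S100A2 went with TPST2 (0.984) and FKBP1A (0.971), and S100A10 with AKR1C1 (0.973) and SEMA4F (0.954). S100A11 went with TMEM64 (0.962) and GPR108 (0.958), S100A13 with AKR1A1 (0.974), and S100A16 with KDELR2 (0.9745) and NPC2 (0.973).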

How the data were processed

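The 12 RNA-seq libraries were grouped by the cell line and label in their titles, and all 12 columns were matched to a sample. Per the labels, RNA was taken at 70% confluence and a stranded mRNA kit was used. The authors deposited RPKM values. The submitters' processing notes name bcl2fastq, Trimmomatic 0.32, TopHat2 2.1.1, R 3.3.1 and DESeq2 1.12.4, and the build GRCh38. The counting tool and annotation are not given in the sources used here. The lengths solved from the members' values, 557 to 958 bases, are shorter than their GENCODE 29 exon unions.

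Library totals and gene lengths were solved so that values became whole reads, which 100.0% did within 0.001 read, and 0 of 500 control genes did with totals 1% off. A group with at most 3 reads in every library was taken as at the floor, and floors cover counting error only. Library totals and the replicates of a group were compared, and none were identical.

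For the test, 13737 protein-coding genes that reached 0.5 RPKM in 2 or more libraries were fitted as log2(RPKM + 0.5) by limma 3.58.1 (R 4.3.3) with 6 group means, 6 residual degrees of freedom and a variance trend. Benjamini-Hochberg adjustment ran within each of 9 comparisons, and a gene was said to rise or fall at an adjusted p under 0.05. A fold on this scale understates changes of low genes. The study's folds, above 1.5 or below 0.5, were a stricter call. An exact permutation test of 2 against 2 libraries cannot give a two-sided p under 0.333. The fit was tested on simulated data.

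The members and lists were chosen with earlier results of these data known. Named were all members, partner genes past the threshold with the 3 largest changes, other S100 genes, and the 2 genes most like each member with a mean RPKM of at least 1, 1 of which is not reported here, as is 1 partner gene counted among those tested. The annexins, MYH9, CACYBP and the receptors named beyond these, and the flanking genes, were chosen after their values were seen. Alternatives changed the pseudocount, filter, scaling, gene types, test (limma voom on recovered reads), libraries fitted, replicate block and libraries kept. Replicate numbers follow consecutive passages, and libraries of the same number deviated together, with correlations of 0.107 to 0.541 in the 6 within-line pairs of groups. Blocked values are therefore given where they change a call. Promoter windows came from RefSeq, where all 9 members matched. Other steps ran in Python 3.11.15 with matplotlib 3.10.9, scipy 1.17.1, pandas 2.3.3 and numpy 2.4.6.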

Additional observations from a re-analysis of the deposited data

Results flagged for a closer look

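The changes of 8 gene and label pairs differed between MDA-MB-231 and Hs-578T by the direct test of the difference (limma, Benjamini-Hochberg adjustment over 13737 genes). They were 4 of 8 members with each label, where 39.8% of all genes tested differed for ERK5-ko and 39.6% for MEK5DD. For ERK5-ko against parental controls, the MDA-MB-231 change minus the Hs-578T change was 1.18 on the log2 scale for S100A4, 0.87 for S100A6, 0.44 for S100A10 and 0.73 for S100A11. Those of S100A6 and S100A10 were lost in several alternatives, among them quantile normalization (adjusted p = 0.251 and 0.105). S100A4 and S100A11 passed against parental controls in both lines, as higher in MDA-MB-231 ERK5-ko and as lower in Hs-578T ERK5-ko. Both rises were lost without any 1 MDA-MB-231 library, and both falls with only the libraries of the Hs-578T comparison. The ERK5-ko libraries of S100A6, S100A10 and S100A13 also lay above parental controls in MDA-MB-231 and below them in Hs-578T.

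For MEK5DD against parental controls, the same difference was -0.85 for S100A2, -1.64 for S100A3, -3.79 for S100A4 and -1.43 for S100A6. In Hs-578T none of these 4 members passed against parental controls, though S100A6 did with the replicate block (0.50, adjusted p = 0.0224) and with quantile normalization (adjusted p = 0.0479). The MEK5DD libraries also differed in MAP2K5, at an RPKM of 184 to 188 in MDA-MB-231 and 21.3 to 23.8 in Hs-578T, and its part in these differences was not tested.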

How the results depend on the processing

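With 2 libraries a group, many member calls rest on the spread estimated over all 12 libraries. Of 1584 values of members under the alternatives, 1423 kept their direction and their side of the threshold, 89 lost a call, 40 gained one and 32 changed sign. The falls of S100A4, S100A3 and S100A2 in MDA-MB-231 MEK5DD passed in all 22 alternatives. The tested members had at least 101 reads in every library, the lowest being S100A2 in Hs-578T, and S100A14 could not be tested. The cause was not tested for any of the changes below, apart from the smaller number of libraries or genes that a setting itself brings.

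The number of members called moved as follows. With the study's fold thresholds it was 0 for Hs-578T ERK5-ko, where 3.27% of all genes tested were below a fold of 0.5. It was 2 for MDA-MB-231 MEK5DD, where 6.31% of all genes tested were below that fold. In MDA-MB-231 ERK5-ko (log2 changes of -0.24 to 0.54) and Hs-578T MEK5DD (-0.52 to 0.50) all members stayed within the thresholds, and the share over all genes is not given for these. With no filter on low values the number of members called was 0 for MDA-MB-231 ERK5-ko, where 898 of 17665 genes were called higher and 1327 lower. It was 3 for Hs-578T ERK5-ko under that setting, where 2821 were called higher and 2751 lower. With quantile normalization it was 1 for MDA-MB-231 ERK5-ko, where 1247 of 13737 genes were called higher and 1215 lower. With only the libraries compared it was 1 for MDA-MB-231 ERK5-ko (990 of 13737 genes higher and 1606 lower) and 0 for Hs-578T ERK5-ko (1800 and 1936). It was 0 for Hs-578T MEK5DD (17 and 49) and 3 for Hs-578T ERK5-ko against MEK5DD (2230 and 1489). With the replicate block it was 4 for Hs-578T MEK5DD (1219 of 13737 genes higher and 3054 lower). The block gave 9 further member calls, each given with its result, and changed no other. The next ranges of member calls, with 1 library left out, stand without the share of all genes called under the same settings. They therefore do not set the members against other genes. Leaving out 1 library gave 0 to 3 calls for MDA-MB-231 ERK5-ko, 0 to 7 for Hs-578T ERK5-ko, 1 to 4 for Hs-578T MEK5DD and 2 to 6 for the ERK5-ko difference between lines.

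Over all genes, calls for Hs-578T MEK5DD went from 884 higher and 2329 lower to 17 and 49 with only its 4 libraries, and for Hs-578T ERK5-ko against MEK5DD from 4224 and 2642 to 2230 and 1489. For MDA-MB-231 ERK5-ko they went from 949 and 1430 to between 387 and 489 higher and between 603 and 777 lower without a library of either group, and for Hs-578T ERK5-ko from 2706 and 2707 to 1467 and 1690 without ERK5-ko replicate 2. Median-ratio scaling moved the split to 1261 higher and 1127 lower for MDA-MB-231 ERK5-ko, 1290 and 1630 for Hs-578T MEK5DD, 3227 and 3420 for Hs-578T ERK5-ko against MEK5DD, and from 4305 and 6324 to 5349 and 5078 between the parental controls. Quantile normalization moved it from 2410 and 3263 to 3162 and 2812 for MDA-MB-231 MEK5DD.

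Changes of sign were all in log2 differences that had not passed. Median-ratio scaling gave S100A3 0.010 in MDA-MB-231 ERK5-ko and 0.0057 in Hs-578T MEK5DD, and S100A13 0.088 between the parental controls. Quantile normalization gave S100A16 -0.0060 in MDA-MB-231 ERK5-ko and -0.12 in MDA-MB-231 MEK5DD, S100A11 -0.17 in MDA-MB-231 MEK5DD and S100A3 0.0037 in Hs-578T MEK5DD. A pseudocount of 1 gave S100A2 -0.0070 for the ERK5-ko difference between lines. Leaving out 1 library gave, in MDA-MB-231 ERK5-ko, -0.16 to 0.053 for S100A3 and -0.052 to 0.097 for S100A16, and in MDA-MB-231 MEK5DD -0.0047 to 0.047 for S100A11 and -0.011 to 0.035 for S100A16. In Hs-578T MEK5DD it gave -0.069 to 0.26 for S100A2, -0.29 to 0.13 for S100A3, -0.22 to 0.27 for S100A4 and -0.013 to 0.25 for S100A11. For ERK5-ko against MEK5DD it gave S100A16 -0.064 to 0.085 in MDA-MB-231 and S100A3 -0.26 to 0.010 in Hs-578T, and between the parental controls S100A13 -0.44 to 0.15. For the difference between lines it gave S100A2 -0.16 to 0.17 and S100A3 -0.055 to 0.36 with ERK5-ko, and S100A11 -0.23 to 0.034 and S100A13 -0.51 to 0.15 with MEK5DD.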
